A study of Arabidopsis thaliana with 4 samples.

Results

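Genes of the auxin response, 29 Aux/IAA genes and 15 ARF genes of Arabidopsis thaliana, were examined for summits of LEC1-FLAG ChIP-seq in developing seeds. These 44 genes were taken by locus identifier out of 27444 nuclear protein-coding genes. A summit is the position of highest ChIP signal within a peak, and each was given to a gene when it lay from 1000 bp outside to 200 bp inside either gene end. Summits deeper in a gene were kept apart as interior summits. The families were chosen by the summits of these same 2 lists at their members, known from earlier work on the data, so all counts and folds of the members are a description and carry no test.

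LEC1 is a seed-expressed NF-YB subunit that acts as a master regulator of embryo development and maturation. The plants were lec1-4 mutants carrying the transgene pLEC1:LEC1-FLAG, that is, FLAG-tagged LEC1 under its own promoter, and they were grown at 22°C under days of 16 h and nights of 8 h. There were 2 ChIP libraries made with an anti-FLAG antibody and 2 input libraries of total chromatin, all from developing seeds of that same genotype, described as biological replicates. The sample labels give a mature seed stage and the series title an embryo expansion stage. Whole seeds were used, so embryo, endosperm and seed coat chromatin cannot be told apart, and no plants without the tag were among the samples, so the background of the antibody at these genes was not measured.

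Auxin acts by removing repressors. Aux/IAA proteins bind ARF transcription factors and recruit TOPLESS co-repressors, and auxin joins Aux/IAA proteins to TIR1/AFB receptors, which mark them for degradation and so free the ARFs on their target genes. Many Aux/IAA genes are themselves switched on by auxin, which closes a feedback loop. In the embryo this module is known for setting up the root pole, the cotyledons and the vascular tissue, with ARF5 (MONOPTEROS) and its repressor IAA12 (BODENLOS) as the best studied pair.

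LEC1-FLAG summits lay at the ends of 8 of 29 Aux/IAA genes (27.6%) and 4 of 15 ARF genes (26.7%) in both replicates. The same was true of 11.7% of all nuclear protein-coding genes. The Aux/IAA genes were IAA2, IAA5, IAA9, IAA11, IAA16, IAA19, IAA20 and IAA29, and the ARF genes were ARF2, ARF6, ARF8 and ARF18. A gene with such a summit is called met here. In replicate 1, whatever replicate 2 showed, 20 Aux/IAA genes (69.0%) and 11 ARF genes (73.3%) had a gene-end summit, against 42.4% of all genes. Replicate 2 had 8 and 4, against 12.0% of all genes, and each of these 12 genes was also met in replicate 1. Of the 3307 nuclear protein-coding genes met in replicate 2, 3201 were also met in replicate 1. The shares of the 2 families lay within 5 percentage points of each other in each replicate, and the count in both replicates was set by the shorter list of replicate 2.

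The peaks were called by the authors separately for each ChIP library over its input, from 4454133 ChIP tags in replicate 1 and 4493099 in replicate 2. The nuclear lists held 15542 and 3777 summits. Fold is the authors' ratio of the ChIP pileup (extended fragments over the summit) to the local background from the input, with 1 added to both. Intervals printed with a fold are exact Poisson 95% intervals of the pileup, which cover counting error of the ChIP reads only. The 2 lists come from separate calls, so folds of the replicates are given side by side and were not averaged.

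**Figure D1:**
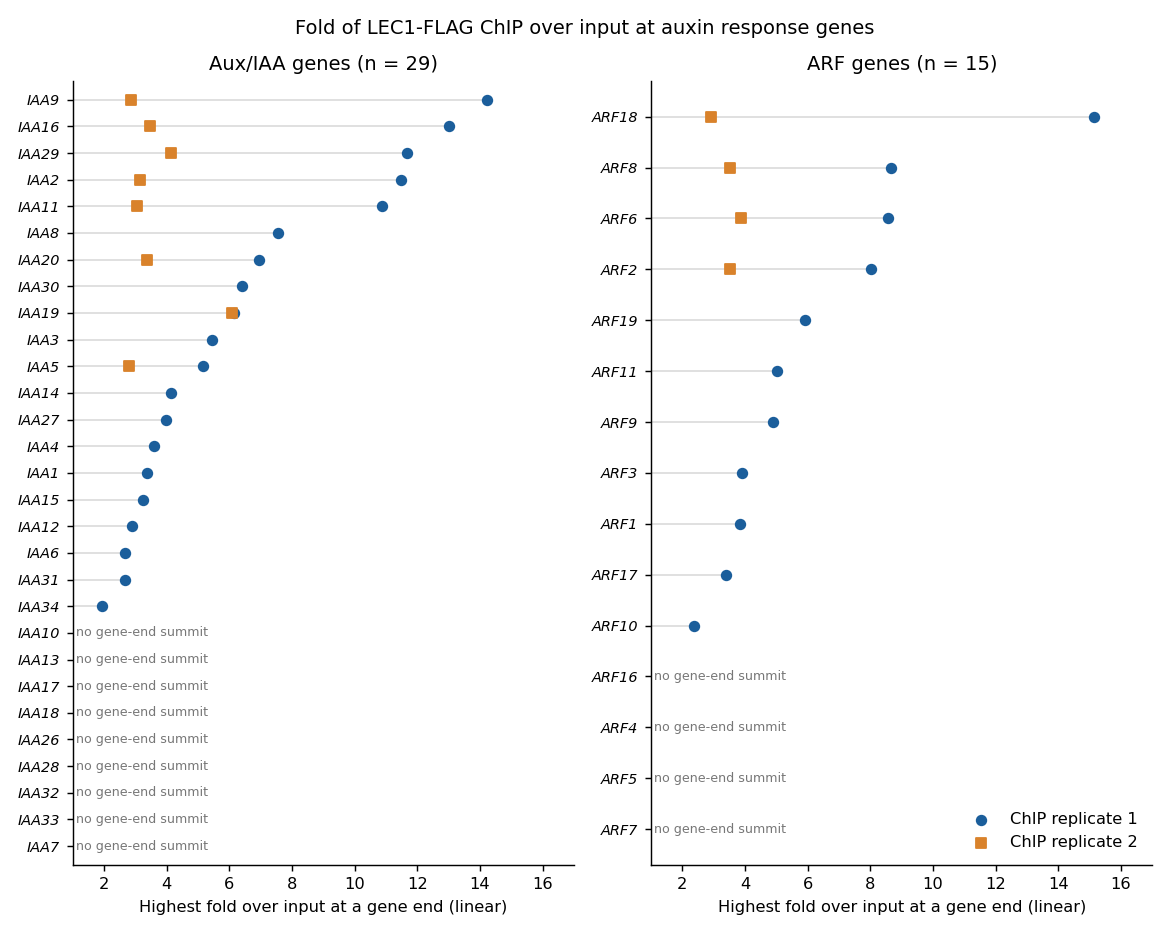
Highest fold over input of the gene-end summits of each Aux/IAA gene (left) and ARF gene (right), with circles for ChIP replicate 1 and squares for ChIP replicate 2. Replicate 2 squares appear at 8 of 29 Aux/IAA genes and 4 of 15 ARF genes, and 9 Aux/IAA genes and 4 ARF genes have no gene-end summit in either replicate.

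Among the Aux/IAA genes, IAA9 (AT5G65670) had the highest fold of replicate 1. IAA9 encodes a long Aux/IAA protein of the group of IAA8 and IAA27, and the tomato IAA9 is known for holding back fruit set until pollination. Its summit in replicate 1, position 26253520 of chromosome 5, had a pileup of 129 and a fold of 14.2 (11.9 to 16.9). In replicate 2 the peak had summits at 26253320, with a pileup of 25 and a fold of 2.85 (1.88 to 4.16), and at 26253475, with 25 and 2.77 (1.83 to 4.04). The long non-coding RNA gene AT5G09425 lies there too, with all 3 summits in its window. The IAA9 site was thus in the upper part of the members in replicate 1 and near the lower end of them in replicate 2.

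IAA16 (AT3G04730), a relative of IAA7, IAA14 and IAA17 whose stabilised form dampens responses to auxin and abscisic acid, had its strongest summits at nearly the same base in both replicates. These were position 1291197 of chromosome 3 in replicate 1, with a pileup of 115 and a fold of 13.0 (10.8 to 15.6), and position 1291203 in replicate 2, with a pileup of 33 and a fold of 3.45 (2.41 to 4.81). A further replicate 1 summit of the same peak lay 147 bp inside the gene at 1290744, with a fold of 8.10. The other genes of this group were met less: IAA14 had 4.15 in replicate 1 alone, and IAA7 and IAA17 had no gene-end summit.

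IAA2 (AT3G23030), a gene of the rapid auxin response, had a fold of 11.5 (9.41 to 13.9) at position 8181946 of chromosome 3 in replicate 1, with a pileup of 105. In replicate 2 it had 3.14 (2.11 to 4.52) at 8181924, with a pileup of 27. Both summits lay inside the gene, 149 and 171 bp from its end. Its close relatives IAA1, IAA3 and IAA4 had gene-end summits in replicate 1 alone, with folds of 3.36, 5.46 and 3.59. Thus 4 of 4 genes of this group were met in replicate 1, against 42.4% of all genes, and 1 of 4 in both, against 11.7%.

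IAA11 (AT4G28640), a relative of IAA12, had a fold of 10.9 (8.73 to 13.4) at position 14141492 of chromosome 4 in replicate 1, with a pileup of 87, and 3.05 (1.94 to 4.59) in replicate 2 at 14141470, with a pileup of 21. A replicate 1 summit of the same peak at 14141187 had 5.48. These summits lay 571 bp (replicate 1, strongest) and 593 bp (replicate 2) outside IAA11 and 438 and 416 bp outside the ABC transporter gene ABCB23, which was the nearer gene. IAA12, which restrains ARF5 in the early embryo, had 2.90 in replicate 1 alone, and IAA10 and IAA13 had no gene-end summit.

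IAA20 (AT2G46990) belongs with IAA30 to IAA34 to the Aux/IAA proteins that lack the usual degradation motif or carry a divergent form of it. It had a fold of 6.93 (5.31 to 8.89) at position 19307147 of chromosome 2 in replicate 1, with a pileup of 60, and 3.37 (2.25 to 4.88) in replicate 2 at 19307154, with a pileup of 26. The summits were 7 bp apart, about as close as those of IAA16. IAA5 (AT1G15580), an auxin-induced gene close to IAA6 and IAA19, had 5.16 (3.74 to 6.96) at position 5366697 of chromosome 1 in replicate 1, with a pileup of 41, and 2.80 (1.84 to 4.12) at 5366765 in replicate 2, with a pileup of 24. That was the lowest replicate 1 fold of the 12 genes, and both summits also lay within 1000 bp of AT1G15590.

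**Figure D2:**
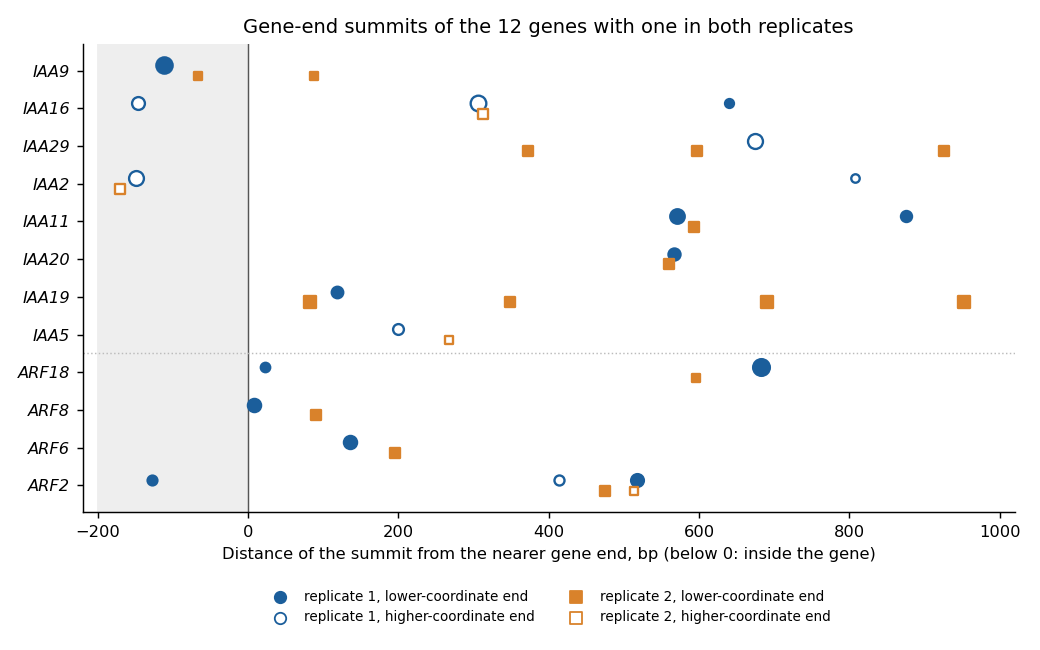
Distance in bp of each gene-end summit from the nearer end of the gene, for the 12 genes met in both replicates (circles, replicate 1; squares, replicate 2; larger symbols, higher folds; filled, lower-coordinate end; open, higher-coordinate end; grey, inside the gene). The closest summits of the replicates are 6 to 87 bp apart at 11 genes, and at IAA29 the summits within the window lie at opposite ends.

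IAA19 and IAA29 stood apart from the other members in replicate 2 by the width of their peaks. IAA19 (AT3G15540, MASSUGU2) takes part in the bending of seedling stems towards light and away from gravity, and IAA29 (AT4G32280) in elongation under shade. The replicate 2 peak at IAA19 ran from 5262158 to 5264075 of chromosome 3 (1918 bp) and held 8 summits with folds of 3.78 to 6.07. The replicate 2 peak at IAA29 ran from 15580510 to 15583251 of chromosome 4 (2742 bp) and held 8 summits with folds of 3.09 to 6.09. Its strongest summit, at 15580799, lay more than 1000 bp from IAA29, and the peak also had summits at the gene AT4G32272. The peaks at IAA19 and IAA29 ranked 3 and 2 by length among 3361 nuclear replicate 2 peaks, whose median length was 275 bp. Only 6 of these peaks were longer than 1500 bp, and the other 4 lay at RGA1 and RGL3, which encode DELLA repressors, at the bZIP gene ABF3 and at AT5G42050.

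At IAA19 the strongest replicate 1 summit (position 5263883, pileup 53) had a fold of 6.13 (4.62 to 7.99). The nearest replicate 2 summit, 35 bp away at 5263918, had a pileup of 39 and a fold of 5.63 (4.04 to 7.64), and the strongest of replicate 2, at 5263049, had 42 and 6.07 (4.42 to 8.16). Its ratio of replicate 2 to replicate 1 fold, 0.990, ranked 88th of the 3201 genes met in both, and was the highest of the 12 members. Replicate 1 had 2 separate peaks over the same stretch, 591 and 613 bp long. At IAA29 the replicate 1 summit lay 674 bp beyond the higher-coordinate end (position 15585577, pileup 100, fold 11.7, 9.51 to 14.2) and 134 bp inside the neighbouring gene AT4G32285. The highest of the replicate 2 summits in the window, at 15582959, lay 373 bp beyond the other end, with a pileup of 30 and a fold of 4.12 (2.83 to 5.83). Within the window the strongest summits of the 2 replicates were therefore 2618 bp apart. Farther out, 2 replicate 1 peaks lay inside the long replicate 2 peak, beyond 1000 bp from IAA29. Of their summits, the stronger was at 15581188, with a fold of 7.34, beside a replicate 2 summit at 15581157, with 3.96. Without peaks longer than 1500 bp, a limit chosen after the data were seen, 6 of 29 Aux/IAA genes and 4 of 15 ARF genes remained, against 11.6% of all genes. Within the long peaks the 8 replicate 2 summits were spread over stretches where replicate 1 had 2 short peaks at each gene. What gave these wide replicate 2 peaks their signal was not tested, so the replicate 2 folds of IAA19 and IAA29 and the ratio of 0.990 may not stand for LEC1-FLAG at single sites.

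**Figure D3:**
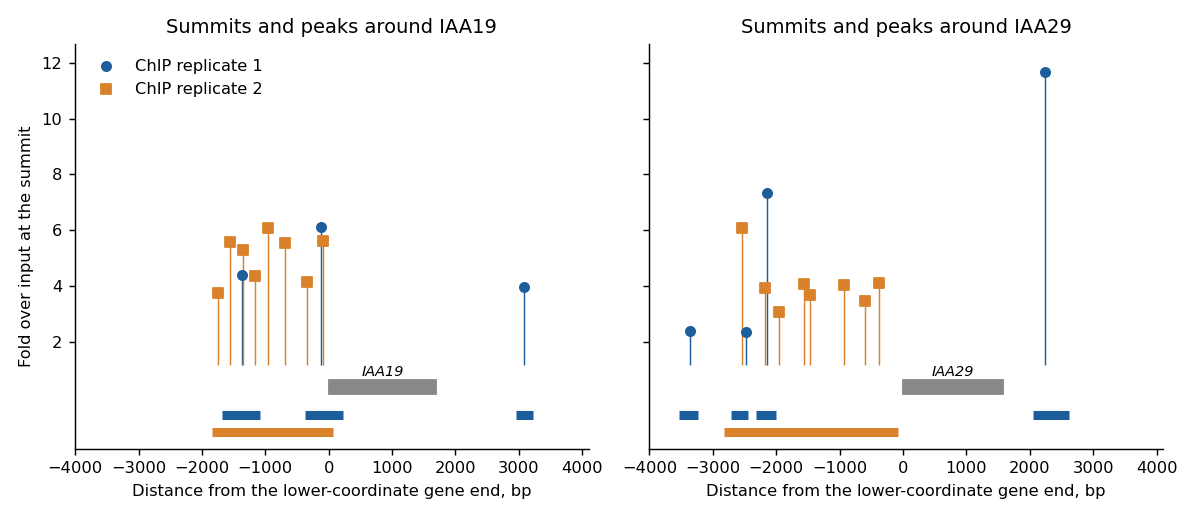
Summits (symbols at their fold over input) and peaks (bars below) of both replicates by distance in bp from the lower-coordinate end of IAA19 (left) and IAA29 (right), with the gene as a grey box. In replicate 2 a single peak of 1918 or 2742 bp with 8 summits lies beside each gene, while replicate 1 has separate peaks, and at IAA29 its strongest is beyond the other end.

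Of the ARF genes, ARF6 (AT1G30330) and ARF8 (AT5G37020), a pair of activators targeted by miR167 that act together in the maturation of flowers, had nearly equal folds in each replicate. ARF6 had 8.56 (6.74 to 10.7) at position 10685686 of chromosome 1 in replicate 1, with a pileup of 73, and 3.86 (2.59 to 5.55) in replicate 2 at 10685627, with a pileup of 27. ARF8 had 8.65 (6.86 to 10.8) at position 14629445 of chromosome 5 in replicate 1, with a pileup of 78, and 3.51 (2.35 to 5.04) in replicate 2 at 14629362, with a pileup of 27. The intervals of the 2 genes overlapped widely in each replicate. All 4 summits lay just outside the gene, at 8 to 195 bp. Of the other activating ARFs, ARF19 had a fold of 5.90 in replicate 1 alone, and ARF5 and ARF7 had no gene-end summit.

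ARF2 (AT5G62000), a repressor known in Arabidopsis for limiting seed size through the growth of the integuments, was met at both ends in both replicates. Near the lower-coordinate end it had 8.02 (6.58 to 9.68) at position 24909673 of chromosome 5 in replicate 1, with a pileup of 106, and 3.53 (2.37 to 5.07) in replicate 2 at 24909716, with a pileup of 27. These summits lay 518 and 475 bp outside ARF2, inside the long non-coding RNA gene AT5G09045. Near the other end it had 4.18 (3.00 to 5.67) at 24915809 in replicate 1 and 2.66 (1.75 to 3.91) at 24915908 in replicate 2. That second pair of summits lay 2 and 101 bp inside the neighbouring heat shock factor gene HSFB2A. ARF2 was the only member with summits at both ends in both replicates. The local background at its strongest replicate 1 summit, with the 1 added to it, was 13.3 fragments. That was the highest at the gene-end summits of the members in that replicate (range 7.96 to 13.3).

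ARF18 (AT3G61830), of the same clade, had the highest replicate 1 fold of all 44 genes and the lowest ratio of the replicates. Its summit at position 22887206 of chromosome 3 had a pileup of 134 and a fold of 15.1 (12.7 to 17.9) in replicate 1. The replicate 2 summit at 22887293 had a pileup of 29 and a fold of 2.91 (1.98 to 4.13), a ratio of 0.192. Both summits lay within the small gene AT3G61829. The replicate 1 summit was 15 bp inside its lower-coordinate end and the replicate 2 summit 29 bp inside its higher-coordinate end. They lay 683 and 596 bp outside ARF18, so AT3G61829 was the nearer gene.

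Of the 19 members met in replicate 1 alone, the 5 with the highest folds were IAA8, IAA30, ARF19, IAA3 and ARF11. IAA8 (AT2G22670) had a fold of 7.54 (5.77 to 9.69) at position 9635346 of chromosome 2, exactly 1000 bp outside the gene. IAA30 (AT3G62100), known as a gene induced by the embryo regulator LEC2, had 6.41 (4.84 to 8.33) at position 22995579 of chromosome 3, 107 bp outside the gene. ARF19 (AT1G19220), which acts with ARF7 in lateral root formation, had 5.90 (4.36 to 7.83) at position 6627854 of chromosome 1. IAA3 (AT1G04240, SHY2), a regulator of root meristem size, had 5.46 (4.18 to 7.02) at position 1129647 of chromosome 1, and ARF11 (AT2G46530) had 5.01 (3.66 to 6.71) at position 19104249 of chromosome 2. Some of these summits also lay in the window of another gene. The IAA8 summit was 233 bp outside the microRNA gene MIR405a. The ARF19 summit was 166 bp outside the protein-coding gene AT1G19210, and the IAA3 summit 859 bp outside the protein-coding gene AT1G04230. IAA8, IAA30, ARF19 and IAA3 lay within the range of the replicate 1 folds of members met in both replicates, 5.16 to 15.1, and ARF11 lay just below it.

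The other 14 had folds of 1.94 (IAA34) to 4.88 (ARF9) in replicate 1. They were IAA1, IAA4, IAA6, IAA12, IAA14, IAA15, IAA27, IAA31 and IAA34, and ARF1, ARF3, ARF9, ARF10 and ARF17. IAA34 had a pileup of 18 and a −log10 q of 1.42, close to the authors' q threshold of 0.05. ARF3 (ETTIN, needed for patterning of the carpel) had summits at both ends in replicate 1, with folds of 3.9 and 3.7. None of the 44 genes was met in replicate 2 alone. That was rare among all genes too, as 3201 of the 3307 met in replicate 2 were also met in replicate 1.

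No gene-end summit in either replicate was found at 9 Aux/IAA genes (IAA7, IAA10, IAA13, IAA17, IAA18, IAA26, IAA28, IAA32 and IAA33) and 4 ARF genes (ARF4, ARF5, ARF7 and ARF16). The group of IAA18, IAA26 and IAA28 had no summit within the window, 0 of 3 in replicate 1, against 42.4% of all genes. IAA18 had summits beyond the window, at 1725 bp in replicate 1 (fold 7.56) and at 1684 bp in replicate 2 (fold 3.83). With an outer limit of 2000 bp, IAA18, IAA33 and ARF16 were met in both replicates. ARF5, which drives formation of the embryonic root, had no interior summit either, and its nearest replicate 1 summit outside the window lay 1967 bp away, with a fold of 12.5. The nearest to the 1000 bp limit were IAA8 (1000 bp, fold 7.54) on its inner side and IAA26 (1051 bp, fold 5.80) on its outer side, both in replicate 1. An absent summit means that no peak passed the authors' threshold at this depth, not that LEC1-FLAG was absent.

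Interior summits were found in replicate 1 alone, at 1 of 29 Aux/IAA genes (IAA16, fold 3.23) and 4 of 15 ARF genes (ARF3, ARF4, ARF17 and ARF18, folds of 1.98 to 2.86). Among all genes 12.8% had an interior summit in replicate 1, 1.93% in replicate 2 and 1.80% in both. The Aux/IAA genes had a median length of 1740 bp and the ARF genes of 4530 bp, against 2078 bp for all genes, so an ARF gene has more interior. ARF4, one of the targets of the small RNAs made from TAS3, had its summit in the interior alone, with a fold of 1.98 and a pileup of 18.

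Above a fold of 8 in replicate 1, every member was also met in replicate 2, and below it the order was mixed. A summit at either gene end counts here, for members and for all genes. At IAA29 the replicate 2 summits lay at the other end, the closest 2618 bp from the replicate 1 summit, so that site did not recur. All 9 members with a replicate 1 fold of at least 8 were met in replicate 2, against 87.6% of 2048 such genes, and 0 of 12 members with a fold below 4 were, against 4.14% of 5320 genes. Between these, 2 of 4 members with a fold of 6 to 8 were met in replicate 2, against 46.3% of such genes, and 1 of 6 with a fold of 4 to 6, against 18.0%. IAA8 and IAA30, met in replicate 1 alone, had higher replicate 1 folds than IAA19 and IAA5, met in both. Among genes met in replicate 1, the median of the highest fold was 5.31 for 20 Aux/IAA genes and 5.01 for 11 ARF genes, against 4.27 for 11634 genes. The 12 members met in both had a median fold of 9.76 in replicate 1, against 8.51 for all 3201 genes met in both, and of 3.41 in replicate 2, against 3.45. Their ratio of replicate 2 to replicate 1 had a median of 0.379, against 0.410 for those 3201 genes. A replicate 2 fold at or above that of replicate 1 was seen in 0 of the 12 members and 83 of the 3201 genes. At the gene-end summits of members the local background, with the 1 added to it, had a median of 8.91 fragments in replicate 1. That of all genes was 9.02, and in replicate 2 the medians were 8.01 for members and 7.52 for all genes.

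**Figure D4:**
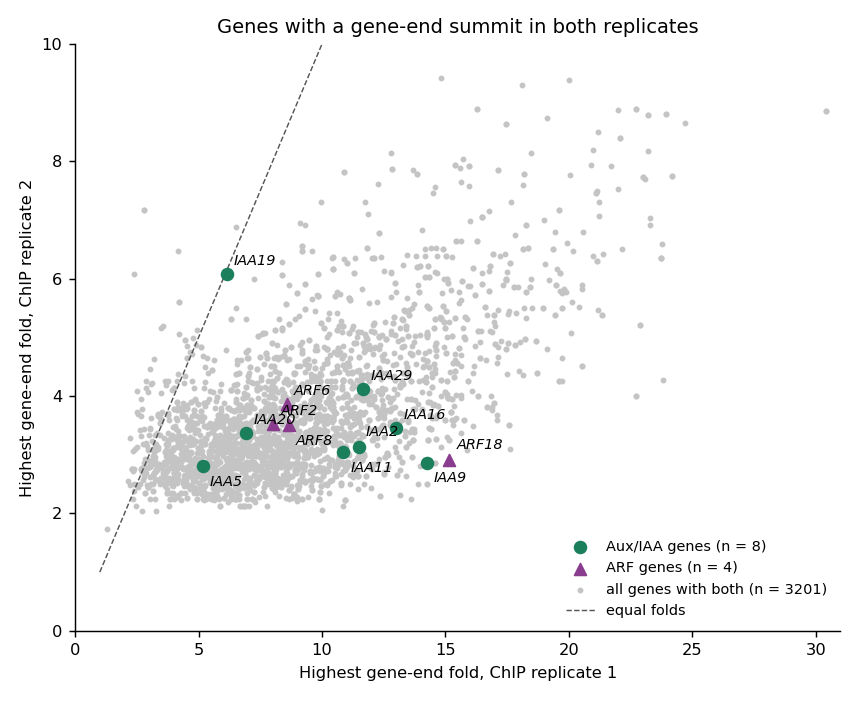
Highest gene-end fold in replicate 2 against that in replicate 1 for 8 Aux/IAA genes (circles) and 4 ARF genes (triangles) over all 3201 genes met in both replicates (grey), with equal folds as a dashed line. IAA19 lies close to the line, while ARF18 and IAA9, with ratios of replicate 2 to replicate 1 that rank 3190 and 3182 of 3201, lie along the lower edge of the genes.

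The strongest replicate 1 summit lay in the gene-end window of another protein-coding gene too at 4 of the 12 members, IAA5, IAA11, IAA29 and ARF18. At IAA2, IAA9, IAA16, IAA19, IAA20, ARF2, ARF6 and ARF8 no other protein-coding gene had it in its window. In an alternative, each summit was given only to its nearest gene among protein-coding genes and the pathway genes listed below. Then 6 of 29 Aux/IAA genes and 3 of 15 ARF genes remained, without IAA11, IAA29 and ARF18, against 7.57% of all genes. Long non-coding RNA genes were not among the genes compared. ARF2 thus remained although its strongest summits lay inside AT5G09045. Without strand in the gene table, the start of a gene and its end cannot be told apart. Taken by lower and higher coordinate, the strongest summits lay at the same end in both replicates in 11 of the 12 genes.

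LEC1-FLAG was also found at the genes that act on both sides of the Aux/IAA proteins. Of the 6 TIR1/AFB receptor genes, 5 carried gene-end summits in each replicate, as did 3 of 5 TOPLESS co-repressor genes, against 11.7% of all genes. AFB1 (AT4G03190) was the strongest, with a fold of 23.2 (20.2 to 26.5) at position 1408156 of chromosome 4 in replicate 1 and 8.79 (6.76 to 11.2) at 1408149 in replicate 2. The protein-coding gene AT4G03200 had the same highest folds in both replicates, so AFB1 shares these summits with it. AFB2 (AT3G26810) had 15.6 (13.0 to 18.6) and 3.38 (2.27 to 4.86), and TIR1 (AT3G62980) had 11.1 (9.23 to 13.1) and 2.88 (1.82 to 4.38), each in replicate 1 and then replicate 2. AFB3 (AT1G12820) had 7.25 and 2.23. For AFB4 (AT4G24390) the strongest summits were at different places, with 7.69 at position 12612324 of chromosome 4 in replicate 1 and 3.59 at 12617023 in replicate 2. AFB5 had no gene-end summit. AFB1 thus lay above all 44 Aux/IAA and ARF genes in both replicates, and the closest summits of the replicates lay 1 to 26 bp apart at the 5 receptor genes. At TIR1 and AFB4 these closest summits were not the strongest of both replicates, whose folds are given above.

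The co-repressor genes met in both replicates were TPR1 (AT1G80490), with 15.1 (12.6 to 17.9) and 4.26 (3.00 to 5.88), TPR2 (AT3G16830), with 13.0 and 4.04, and TPL (AT1G15750), with 9.38 and 3.79. The protein-coding gene AT1G80480 had the same highest folds as TPR1 in both replicates, so these summits are shared too. TPR3 and TPR4 had 3.09 and 5.67 in replicate 1 alone. The SCF ligase joins the receptors to the degradation machinery. Of the 9 genes of that ligase and its regulators, ASK2 (AT5G42190, an SKP1-like adaptor, 13.8 and 3.79) and RCE1 (AT4G36800, a RUB-conjugating enzyme, 7.98 and 2.44) were met in both.

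The outputs of the pathway were met at a share near that of all genes. Of 8 GH3 genes, whose enzymes conjugate auxin to amino acids, GH3.1 (AT2G14960, 5.00 and 2.88) was met in both replicates, and GH3.17 was met in replicate 2 alone (2.79). Of 12 SAUR genes, which respond early to auxin, only SAUR15 (AT4G38850, 10.9 and 4.01) was met in both. Of 10 genes downstream of ARF5 or of ARF7 and ARF19, only LBD18 (AT2G45420, a lateral organ boundaries gene, 7.69 and 5.07) was. The 8 other ARF genes, a group of near copies on chromosome 1, had no gene-end summit in either replicate. Of 14 genes of small RNAs that target ARF or TIR1/AFB transcripts, 4 had a summit in replicate 1 (MIR390A 5.19, TAS3 4.20, MIR167A 3.73 and MIR167C 2.44) and none in replicate 2. Over all 8 lists, 13 of 72 genes (18.1%) were met in both replicates, against 11.7% of all genes. In replicate 1 it was 30 of 72, against 42.4% of all genes, so the share in replicate 1 was near that of all genes. The 72 include the 14 small RNA genes, while the shares of all genes cover protein-coding genes only.

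**Figure D5:**
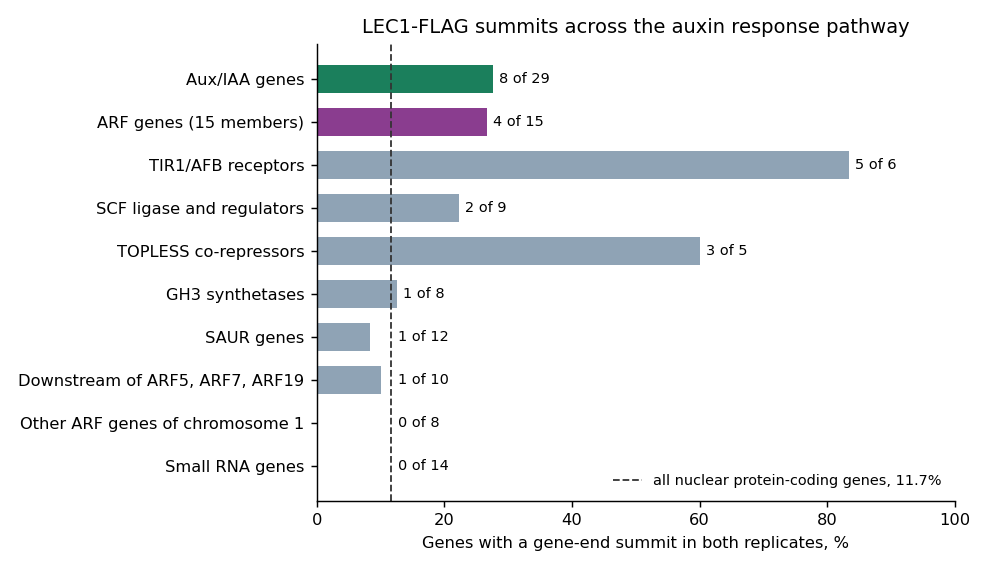
Share of genes with a gene-end summit in both replicates, in %, for the Aux/IAA and ARF families and 8 lists of other auxin pathway genes, with counts beside the bars and the 11.7% of all nuclear protein-coding genes as a dashed line. The receptor genes (5 of 6) and co-repressor genes (3 of 5) have the highest shares, and the other ARF genes and the small RNA genes have none.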

How the data were processed

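ChIP-seq peak lists of 2 LEC1-FLAG replicates were analysed. The input libraries entered through the peak calls. BWA 0.7.12 and the build TAIR10 are listed in the submitters' processing notes. Per the file headers, MACS 2.1.0.20150420 called peaks for each ChIP library over its own input (7578894 input tags in replicate 1 and 9646586 in replicate 2) at a q threshold of 0.05, with extensions of 187 and 149 bp, at most 1 tag per position and several summits per peak. In the deposited tables the pileup is a signal of extended fragments and the fold is a ratio. The significance columns of the deposited tables are −log10 of the p-value and of the q-value. The replicates differ in extension and input depth, and the part of these in their folds was not tested.

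Summits on the 5 nuclear chromosomes were assigned in Python 3.11.15 (numpy 2.4.6, pandas 2.3.3, scipy 1.17.1) to genes of a RefSeq table (assembly TAIR10.1), from which no coordinate is printed; 292 chloroplast summits of replicate 2 were left out. All 44 members and 72 pathway genes matched by locus tag. Against shifts of up to 2000 bp either way, summits lay within 200 bp of gene ends most often unshifted (42.6% in each replicate). The local background, with the 1 added to it, was (pileup + 1) / fold, and interval bounds with 1 added were divided by it likewise. The assignment was tested on simulated data.

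The members and lists were chosen with earlier results of these data known. Members met in both replicates, the 5 highest of those met in replicate 1 alone, and pathway genes met in both are given with values; further genes were named after their values were seen. Subgroups follow textbook relations. Alternatives covered the window, the q threshold, the joining of replicates, the nearest protein-coding or pathway gene, the whole peak and each replicate alone. Start and end of genes were not separated, and no sequences were used, since strand and sequence were not at hand.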

Additional observations from a re-analysis of the deposited data

How the results depend on the processing

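The count of genes with a gene-end summit in both replicates was 8 Aux/IAA genes, 4 ARF genes and 13 pathway genes. It stayed within 1.5 times these values for all 3 under an outer limit of 2000 bp, inner limits of 0 and 500 bp, matched summits or overlapping peaks, the whole gene, the nearest gene, the whole peak and the strongest summit of each peak. With an outer limit of 500 bp, 5 Aux/IAA genes remained, against 8.62% of all genes. At −log10 q of at least 5, 5 Aux/IAA genes remained (6.65% of all genes). At −log10 q of at least 10 the counts were 1 Aux/IAA gene (IAA19), 0 ARF genes and 3 pathway genes (2.58% of all genes). Leaving out a replicate gave 8 to 20 Aux/IAA genes, 4 to 11 ARF genes and 14 to 30 pathway genes, the higher values without replicate 2, where 42.4% of all genes were met, and the lower without replicate 1, where 12.0% were. Members with an interior summit in both replicates numbered 0 of 44 (1.80% of all genes), and 2 of 44 with an inner limit of 0 bp (4.11% of all genes), namely IAA2 and IAA9, whose summits inside the gene then count as interior. With a replicate left out the range was 0 to 5, the higher value without replicate 2 (12.8% of all genes). Where a gene kept a gene-end summit, its highest fold moved beyond counting error in 4 cases, 2.39 at IAA2 in replicate 1 with an inner limit of 0 bp, 3.45 at ARF18 in replicate 1 with an outer limit of 500 bp and with the nearest gene only, and 4.18 at ARF2 in replicate 1 with an outer limit of 500 bp. Windows at the start or at the other end of a gene alone were not run for lack of strand. No paired analysis was possible because the results come from no test and the input libraries have no values of their own here. Replicate 2 has fewer summits at like ChIP depth, and its list limits which genes can be met in both.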
